A study of Mus musculus with 10 samples.

Results

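The interferon-gamma inducible GTPases described here are 4 guanylate-binding proteins (Gbp2, Gbp3, Gbp6 and Gbp7) and 5 immunity-related GTPases (Irgm1, Irgm2, Igtp, Iigp1 and Tgtp1), together with the transcription factor Irf1. They were taken by name, and all 10 were found among the 55487 gene identifiers of each of 2 liver tables. All 10 also passed the filter on low counts in both tables. Read counts were compared in whole liver of C57BL/6J mice, 8 weeks old and labelled male, in which every group had undergone partial hepatectomy (PHx), the surgical removal of most of the liver that makes the remnant regrow. In the diet experiment, 3 livers from mice on a high-fat diet (HFD) for 7 days were set against 3 from mice on chow, at 40 hours after PHx. In the inhibitor experiment, 4 libraries from mice given SSO at 40 mg/kg were set against 4 from mice given the solvent as vehicle, with dosing 1 day ahead of PHx and tissue taken at 48 hours. SSO is not spelled out in the labels; the name is commonly used for sulfosuccinimidyl oleate, a compound that blocks fatty acid uptake through CD36. Neither experiment holds livers without PHx, so the effect of the surgery itself on these genes is not measured.

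Interferon-gamma is a cytokine made mainly by T cells and natural killer (NK) cells. It binds the receptor formed by Ifngr1 and Ifngr2, and the kinases Jak1 and Jak2 then pass the signal to DNA elements called GAS (gamma-activated sequence). Irf1 is itself an early product of this signal and binds a second element, the ISRE (interferon-stimulated response element), which type I interferons also use, through a complex that contains Irf9. The guanylate-binding proteins (GBPs) and immunity-related GTPases (IRGs) are among the most strongly induced products of this pathway in mouse cells, hepatocytes included, and attack the vacuoles in which intracellular bacteria and parasites live.

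The members lie on few chromosomes. In GENCODE M21 on GRCm38, Gbp7 (ENSMUSG00000040253, chr3:142530342-142550149), Gbp3 (ENSMUSG00000028268, chr3:142560026-142573209) and Gbp2 (ENSMUSG00000028270, chr3:142620602-142638008) follow each other on the plus strand. Gbp6 (ENSMUSG00000104713) lies in the other mouse GBP cluster at chr5:105270702-105293698, on the minus strand. Irgm1 (ENSMUSG00000046879, chr11:48861968-48871683, minus), Tgtp1 (ENSMUSG00000078922, chr11:48985327-48994172, minus), Irf1 (ENSMUSG00000018899, chr11:53770014-53778374, plus), Igtp (ENSMUSG00000078853, chr11:58199556-58207591, plus) and Irgm2 (ENSMUSG00000069874, chr11:58199618-58222782, plus) share chromosome 11, and Iigp1 (ENSMUSG00000054072) is on chromosome 18. All are annotated as protein coding.

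Some members share sequence with neighbours, which limits what a gene count can mean. Of the 100-base stretches in the Tgtp1 transcripts, 73.1% also occur in another gene, and 70.3% occur in Tgtp2. For Gbp6 this share is 64.5%, and for Gbp7 it is 10.0%, mainly with the predicted genes Gm43302 and Gm43802, whose annotated exons partly overlap theirs. Igtp and Irgm2 have overlapping gene models and share 5.16% and 3.01% of their stretches with each other. How reads that fit several genes were counted is not given in the sources used here, so the levels of Tgtp1 and Gbp6 are uncertain. For Gbp2, Gbp3, Irgm1, Iigp1 and Irf1 the share is under 1%.

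The promoters of the members are shown first, and a link between them and the levels described further on was not tested. RefSeq promoter entries (GRCm38.p6, 250 bases before to 50 bases after a gene start) were matched for 8 members, with 10 entries in all. Each entry was searched for GAS, spelled TTCNNNGAA, which reads the same on both strands, and for ISRE, spelled GAAANNGAAA, on both strands. At least 1 of these was present in all 8 matched members, against 12.9% of the 27025 genes that the 32851 promoters belong to. GAS was found in 5 members (9.55% of all genes), ISRE in 7 (3.99%) and both in 4 (0.54%). The second entries of Gbp3 and Irf1 held no match. For the Irgm2 and Gbp7 entries, the 50 bases after the start were not an unbroken part of any GENCODE transcript of the gene. Their starts thus rest on RefSeq alone, and the Irgm2 window below lies inside that gene's GENCODE model. The lines below give 100 bases of each matched promoter, from 110 to 11 bases before the start and 5′ to 3′ on the strand of the gene, with the matches in capitals. An ISRE on the opposite strand reads as runs of TTTC, and the overlapping copies in Gbp3 and in Irgm1 form a single run of capitals.
Igtp (chr11:58199446-58199545, plus strand): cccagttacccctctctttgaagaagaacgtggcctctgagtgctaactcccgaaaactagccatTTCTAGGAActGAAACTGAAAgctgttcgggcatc
Irgm2 (chr11:58214867-58214966, plus strand): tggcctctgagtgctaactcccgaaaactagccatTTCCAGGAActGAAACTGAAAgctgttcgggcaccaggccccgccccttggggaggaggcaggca
Tgtp1 (chr11:48992257-48992356, minus strand): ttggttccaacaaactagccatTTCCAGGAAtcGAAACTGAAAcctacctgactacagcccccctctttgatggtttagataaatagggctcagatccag
Irgm1 (chr11:48871431-48871530, minus strand): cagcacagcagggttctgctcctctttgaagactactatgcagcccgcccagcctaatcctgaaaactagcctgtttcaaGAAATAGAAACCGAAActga
Gbp2 (chr3:142620553-142620652, plus strand): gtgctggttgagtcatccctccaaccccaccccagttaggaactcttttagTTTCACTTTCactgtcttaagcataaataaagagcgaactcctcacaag
Gbp3 (chr3:142559934-142560033, plus strand): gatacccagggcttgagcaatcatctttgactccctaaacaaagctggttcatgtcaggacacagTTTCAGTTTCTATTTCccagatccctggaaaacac
Gbp7 (chr3:142530226-142530325, plus strand): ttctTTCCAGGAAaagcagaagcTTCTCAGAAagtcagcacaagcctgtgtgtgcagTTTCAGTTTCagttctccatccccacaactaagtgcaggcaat
Irf1 (chr11:53769904-53770003, plus strand): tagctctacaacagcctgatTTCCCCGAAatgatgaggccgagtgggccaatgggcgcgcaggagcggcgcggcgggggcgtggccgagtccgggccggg

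Igtp, Irgm2 and Tgtp1 have the same layout, a GAS followed by an ISRE that begins 11 bases after the first base of the GAS on the strand of the gene. That spacing occurred in 5 of 32851 promoters (0.0152%), and the other two genes with it were Tgtp2 and Gm12185, a predicted gene that overlaps Tgtp1. Lined up on the GAS, Igtp and Irgm2 were identical at 63 of 65 bases (96.9%), which makes them near copies in this stretch. Igtp and Tgtp1 were identical at 38 of those 65 bases (58.5%). Gbp7 has 2 GAS matches upstream of an ISRE. Irf1 has a GAS and no ISRE, while Gbp2, Gbp3 and Irgm1 have ISRE matches and no GAS in these windows. A match is a string of letters and does not show that a factor is bound, and binding was not measured.

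**Figure D1:**
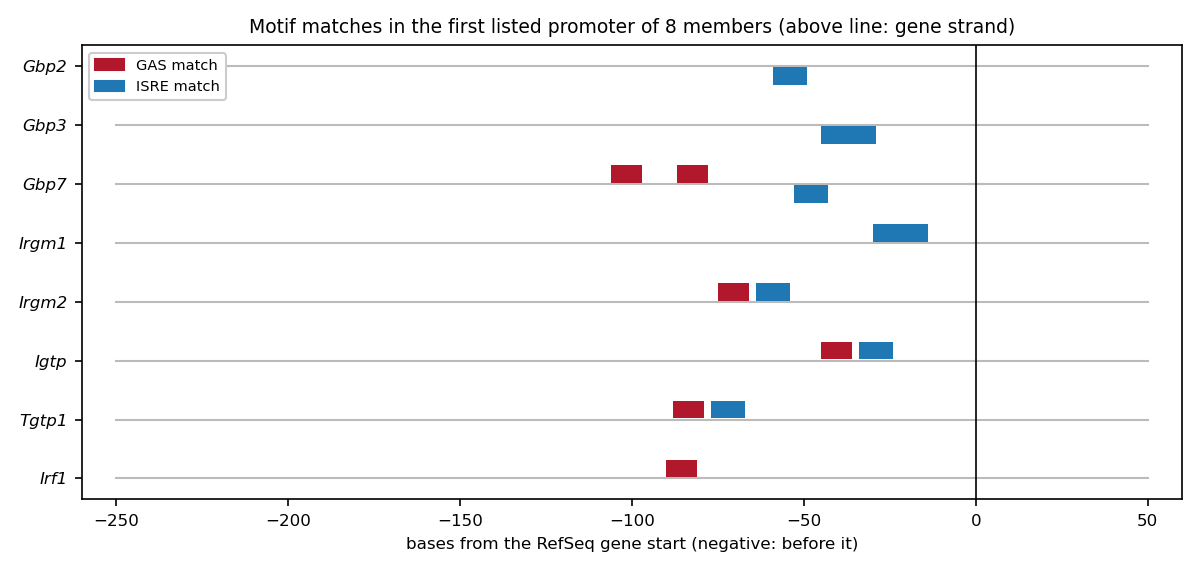
Positions of GAS (red) and ISRE (blue) matches in the first listed RefSeq promoter of 8 members, in bases from the gene start; bars above a line lie on the gene's strand and bars below it on the other strand. All matches fall between 106 and 15 bases before the start, and Irgm2, Igtp and Tgtp1 show the GAS and ISRE side by side.

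Sequencing depth was 31.9 to 39.9 M counts in each diet library and 25.2 to 30.4 M in each inhibitor library, so that 3 counts, the limit that a count of 0 allows, equal 0.0770 to 0.136 CPM (counts per 1 M counts of the library). The hepatocyte product Alb stood at 30839 to 82776 CPM across all libraries, and all 7 matched hepatocyte markers were present. The vehicle libraries differed widely among themselves. Mitochondrially encoded transcripts took 4.99% to 22.5% of their counts, against 15.2% to 17.6% in SSO libraries, and vehicle 1 and vehicle 3 stood apart on the first principal component (47.1% of the variance). All 8 libraries of the inhibitor experiment held Xist at 698 to 1772 CPM and no counts of Y-linked genes, which goes against the label male, whereas the diet libraries held Xist at 0 to 0.620 CPM. No pair of libraries within a group agreed within sampling noise. CPM values below use library sizes scaled by the trimmed mean of M values (TMM) within each table, so levels in the diet and inhibitor experiments were scaled separately.

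The abundance of the members was compared per kilobase of exon. In chow liver the order was Iigp1 (30.8 CPM per kb), Igtp (13.9), Irgm2 (10.1), Irgm1 (8.16), Irf1 (4.41), Gbp2 (1.29), Gbp7 (1.02), Gbp3 (0.905), Gbp6 (0.250) and Tgtp1 (0.245), as means of 3 livers. The 4 leading genes are all IRGs, and neighbours among them had overlapping ranges over the 3 livers. Irf1 lay below the range of Irgm1 and above that of Gbp2. Gbp2, Gbp7 and Gbp3 were not separated from each other, and Gbp6 and Tgtp1 lay below them. In vehicle livers, Igtp (111 CPM per kb) and Iigp1 (101) led, followed by Irgm2 (41.1), Irgm1 (37.6), Gbp3 (28.1), Irf1 (16.4), Gbp7 (11.5), Tgtp1 (7.43), Gbp2 (7.42) and Gbp6 (5.26). There, every neighbouring pair in the order had overlapping ranges over the 4 libraries. IRG transcripts were thus the more abundant family in both experiments on this per-length scale, apart from Tgtp1.

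The first comparison asks how a week of HFD before surgery bears on these genes in regenerating liver. All 10 members had a positive log2 fold change in HFD against chow, as did 47.3% of all 15589 genes tested. Their median was 0.56, against -0.02 for all genes. None passed the test at an adjusted p of 0.05 (edgeR quasi-likelihood test, Benjamini-Hochberg adjustment over all genes), where 2.32% of all genes did. At an unadjusted p of 0.05, 5 of the 10 were higher in HFD, against 7.52% of all genes. For 6 of the 10, every HFD liver lay above every chow liver, as was so for 11.2% of all genes. Livers hold several cell types, and in such bulk samples a change in the share of a cell type and a change in RNA per cell cannot be told apart.

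Tgtp1, an IRG that coats parasite vacuoles, came nearest to the threshold. Its levels were 1.08, 0.602 and 0.676 CPM in chow 1 to 3 and 2.15, 2.36 and 3.25 CPM in HFD 1 to 3. The 3 HFD livers lay above all chow livers, at low levels throughout. The log2 fold change was 1.71 ± 0.37 (SE, n = 3 and 3; edgeR adjusted p = 0.0503). It passed under scaling by relative log expression (RLE; adjusted p = 0.0499), by library size alone (adjusted p = 0.0384), without the filter on low counts (adjusted p = 0.0106) and in DESeq2 (adjusted p = 0.00231; 5.19% of all genes called), but not in limma-voom (2.32% called). Since most of its sequence is shared with Tgtp2, both were also summed, which gave 1.45 and an adjusted p of 0.0939. Tgtp2 alone was measured at 0.642, 0.209 and 0.615 CPM in chow and 0.386, 0.907 and 1.42 CPM in HFD, and these groups overlapped.

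Among the GBPs, which assemble on microbial membranes, 3 of 4 separated the groups. Gbp3 was measured at 3.95, 3.03 and 1.87 CPM in chow and 5.79, 3.99 and 9.78 CPM in HFD (log2 fold change 1.14 ± 0.39, edgeR adjusted p = 0.206). Gbp6 stood at 2.46, 1.18 and 0.829 CPM in chow and 3.23, 3.32 and 3.54 CPM in HFD (1.17 ± 0.40, adjusted p = 0.209). Gbp7 stood at 7.96, 5.83 and 3.38 CPM in chow and 9.70, 9.91 and 11.5 CPM in HFD (0.85 ± 0.29, adjusted p = 0.203). In these 3 genes, chow 1 was the highest and chow 3 the lowest chow liver, and no chow liver reached the lowest HFD liver. Gbp2, in contrast, was at 4.52, 1.88 and 3.35 CPM in chow and 3.12, 2.57 and 4.25 CPM in HFD, with a log2 fold change of 0.03 ± 0.36, and its groups overlapped fully. Its sign turned when chow 2 (-0.25) or HFD 3 (-0.19) was left out.

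The 3 regulatory IRGs, Irgm1, Irgm2 and Igtp, keep the effector IRGs from attacking the cell's own membranes. Irgm1 was at 55.01, 47.9 and 39.2 CPM in chow and 56.9, 64.2 and 68.9 CPM in HFD, a log2 fold change of 0.42 ± 0.15 (edgeR adjusted p = 0.2403). The groups did not overlap, though chow 1 and HFD 1 were close. Irgm2 was at 49.2, 36.9 and 25.5 CPM in chow and 48.0, 53.4 and 42.1 CPM in HFD, and chow 1 lay within the HFD range (0.36 ± 0.22, adjusted p = 0.503). Igtp was at 40.2, 24.7 and 19.4 CPM in chow and 45.8, 40.3 and 38.5 CPM in HFD, and again only chow 1 reached the HFD livers (0.56 ± 0.25, adjusted p = 0.339). Iigp1, an effector IRG and the member with the most counts, was at 217, 225 and 95.4 CPM in chow and 272, 244 and 270.4 CPM in HFD (0.55 ± 0.30, adjusted p = 0.445). Its groups did not overlap, and chow 3 alone lay far below the other livers.

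Irf1, the transcription factor of the set, had the smallest log2 fold change after Gbp2. Its levels were 16.5, 16.6 and 19.4 CPM in chow and 25.1, 15.9 and 22.0 CPM in HFD, with overlapping groups and a log2 fold change of 0.26 ± 0.18 (edgeR adjusted p = 0.551).

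Leaving out chow 1 changed how many members were called. Chow 1 was the highest chow liver in 8 of 10 members and chow 3 the lowest in 7 of 10. Without chow 1, 4 members passed (edgeR): Gbp6 (log2 fold change 1.74, adjusted p = 0.0246), Gbp7 (1.17, adjusted p = 0.0476), Igtp (0.92, adjusted p = 0.0174) and Tgtp1 (2.02, adjusted p = 0.0256), while 4.25% of all genes passed. Leaving out any other single liver called none of the 10.

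**Figure D2:**
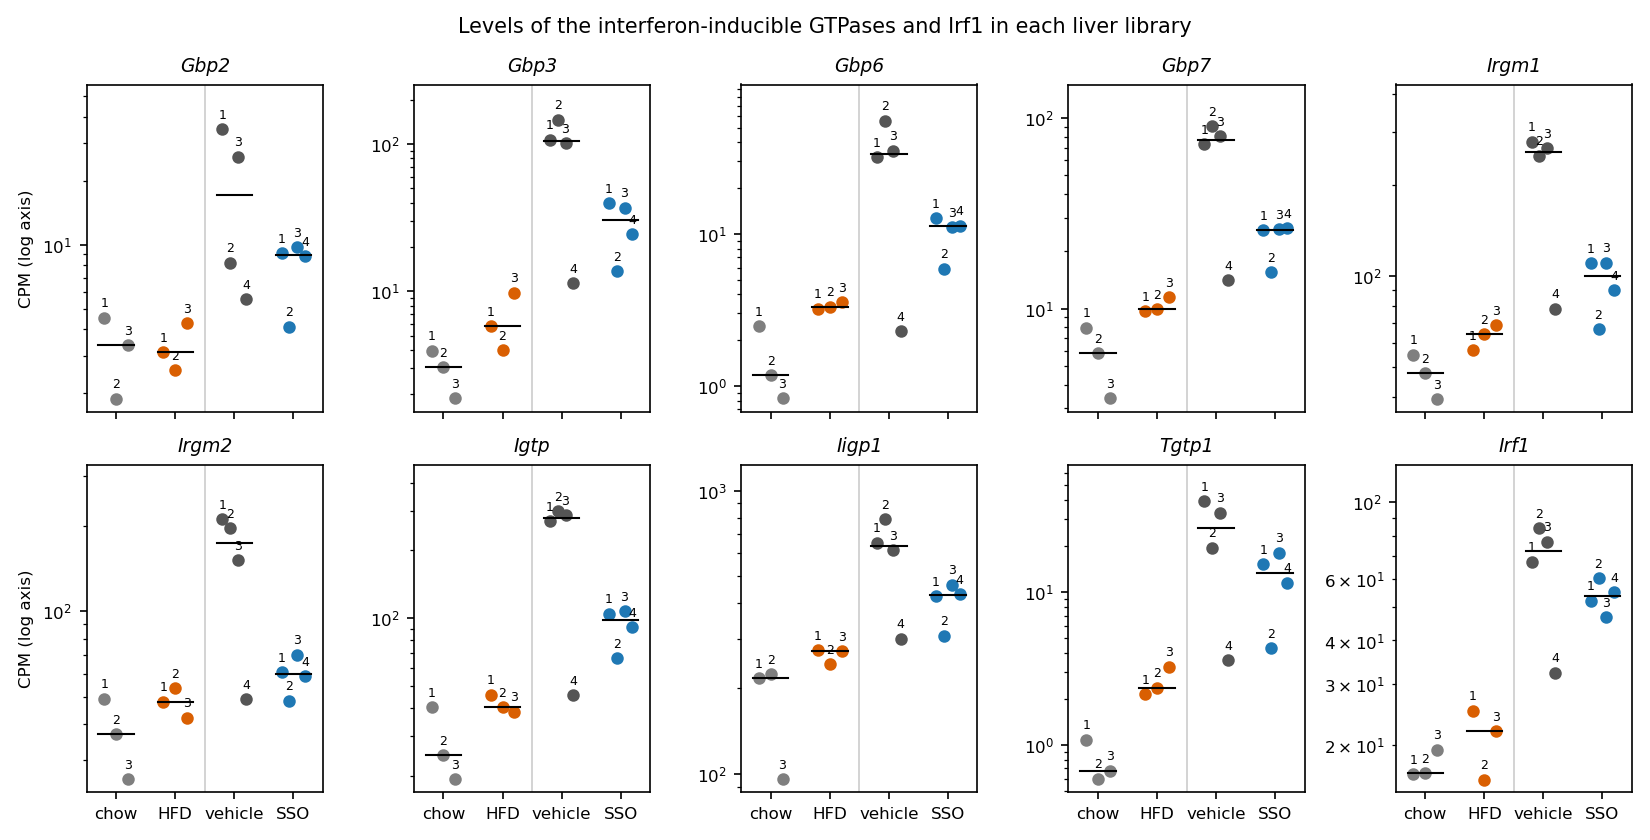
Level of each member in every library, in CPM on a log axis, with the library number beside each point and a line at the group median; the grey vertical line separates the experiments, which were scaled separately. In the inhibitor experiment, vehicle 1 to 3 lie high and vehicle 4 lies at or below the SSO libraries in most members.

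The second comparison asks what SSO given before surgery does to the same genes. All 10 members had a negative log2 fold change in SSO against vehicle, from -0.28 (Irf1) to -1.68 (Gbp3), as did 53.0% of all 15788 genes tested. Their median was -1.26 against -0.04 for all genes. None passed the edgeR test at an adjusted p of 0.05, where 0.45% of all genes did. At an unadjusted p of 0.05, 6 of 10 were lower in SSO, against 12.5% of all genes, and the groups overlapped in all 10, where 5.62% of all genes were lower in every SSO library. The labels do not state whether the 4 libraries per group are separate animals, and p-values here therefore reflect only how far those libraries spread.

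In 9 of the 10 members the overlap came from vehicle 4 alone. Vehicle 4 was the lowest vehicle library in all 10 members and lay below every SSO library in 7 of them. Vehicle 1 and vehicle 3 lay above every SSO library in all 10 members, and vehicle 2 did so in 9, the exception being Gbp2. Summed over the 10 members, the level was 1767, 1941, 1671 and 541 CPM in vehicle 1 to 4 and 855, 593, 902 and 809 CPM in SSO 1 to 4. Within the SSO group, SSO 2 was the lowest library in 9 of 10 members.

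Irgm2 and Irgm1, 2 of the 3 regulatory IRGs, had the smallest p-values among the members. Irgm2 was at 211, 196, 151 and 49.0 CPM in vehicle 1 to 4 and 60.9, 48.4, 70.3 and 59.1 CPM in SSO 1 to 4, a log2 fold change of -1.35 ± 0.37 (SE, n = 4 and 4; edgeR adjusted p = 0.113). Irgm1 was at 279, 251, 266 and 78.1 CPM in vehicle and 110, 66.9, 111 and 90.2 CPM in SSO (-1.21 ± 0.36, adjusted p = 0.128). Igtp was at 269, 298, 287 and 45.6 CPM in vehicle and 105, 66.6, 108 and 91.4 CPM in SSO (-1.28 ± 0.48, adjusted p = 0.182). In these 3 genes, vehicle 1 to 3 lay above every SSO library and vehicle 4 was among or below the SSO libraries.

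The effector IRGs among the members, Iigp1 and Tgtp1, had log2 fold changes nearer to 0 than Irgm1, Irgm2 and Igtp. Iigp1 was at 654, 792, 614 and 299 CPM in vehicle and 424, 307, 464 and 431 CPM in SSO (-0.54 ± 0.29, edgeR adjusted p = 0.324). Tgtp1 was at 39.3, 19.4, 32.96 and 3.56 CPM in vehicle and 15.2, 4.30, 18.0 and 11.5 CPM in SSO (-0.96 ± 0.65, adjusted p = 0.426). Vehicle 2 stood only just above the highest SSO library in Tgtp1. Its near copy Tgtp2, which is not a member, was at 16.1, 10.9, 13.9 and 0.960 CPM in vehicle and 3.12, 3.02, 4.42 and 2.25 CPM in SSO (-1.71 ± 0.65, adjusted p = 0.187). Tgtp1 and Tgtp2 summed gave -1.15 (edgeR adjusted p = 0.336).

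Gbp3, Gbp6 and Gbp7 were highest in vehicle 2. Gbp3 was at 108, 146, 102 and 11.3 CPM in vehicle and 39.6, 13.7, 37.1 and 24.4 CPM in SSO (-1.68 ± 0.65, edgeR adjusted p = 0.198). Gbp6 was at 32.0, 55.7, 35.3 and 2.30 CPM in vehicle and 12.7, 5.90, 11.1 and 11.3 CPM in SSO (-1.61 ± 0.71, adjusted p = 0.242). Gbp7 was at 72.8, 91.0, 80.2 and 14.2 CPM in vehicle and 25.8, 15.5, 26.1 and 26.5 CPM in SSO (-1.46 ± 0.48, adjusted p = 0.152). Gbp6 spanned the widest range of any member within a group, 24.3-fold from vehicle 4 to vehicle 2. Gbp2 had another order, with 35.04, 8.22, 25.9 and 5.52 CPM in vehicle and 9.14, 4.11, 9.73 and 8.80 CPM in SSO (-1.23 ± 0.56, adjusted p = 0.254). For Gbp2, vehicle 2 lay within the SSO range, unlike the other GBPs.

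Irf1 varied least between vehicle libraries, by 2.60-fold, and had the smallest difference between groups. It was at 67.3, 84.1, 76.9 and 32.3 CPM in vehicle and 52.0, 60.5, 46.7 and 55.1 CPM in SSO (-0.28 ± 0.26, edgeR adjusted p = 0.557). SSO 2, the lowest SSO library for the 9 GTPases, was the highest for Irf1.

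The calls depended on which vehicle libraries were in the fit. Without vehicle 4, 6 members passed (edgeR): Gbp7 (-1.78, adjusted p = 0.00383), Irgm2 (-1.63, adjusted p = 0.00383), Igtp (-1.61, adjusted p = 0.00554), Irgm1 (-1.47, adjusted p = 0.00860), Gbp6 (-1.99, adjusted p = 0.00937) and Gbp3 (-2.04, adjusted p = 0.0172), while 2.24% of all genes passed. Without vehicle 1 and vehicle 3, a pair chosen after seeing the data, none passed and the signs of Gbp2 (0.22) and Tgtp1 (0.11) turned. DESeq2 on all 8 libraries called 3 members lower in SSO, Irgm2 (adjusted p = 0.0115), Irgm1 (adjusted p = 0.0210) and Gbp7 (adjusted p = 0.0233), where it called 6.35% of all genes. Limma-voom called no member and 0.412% of all genes.

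**Figure D3:**
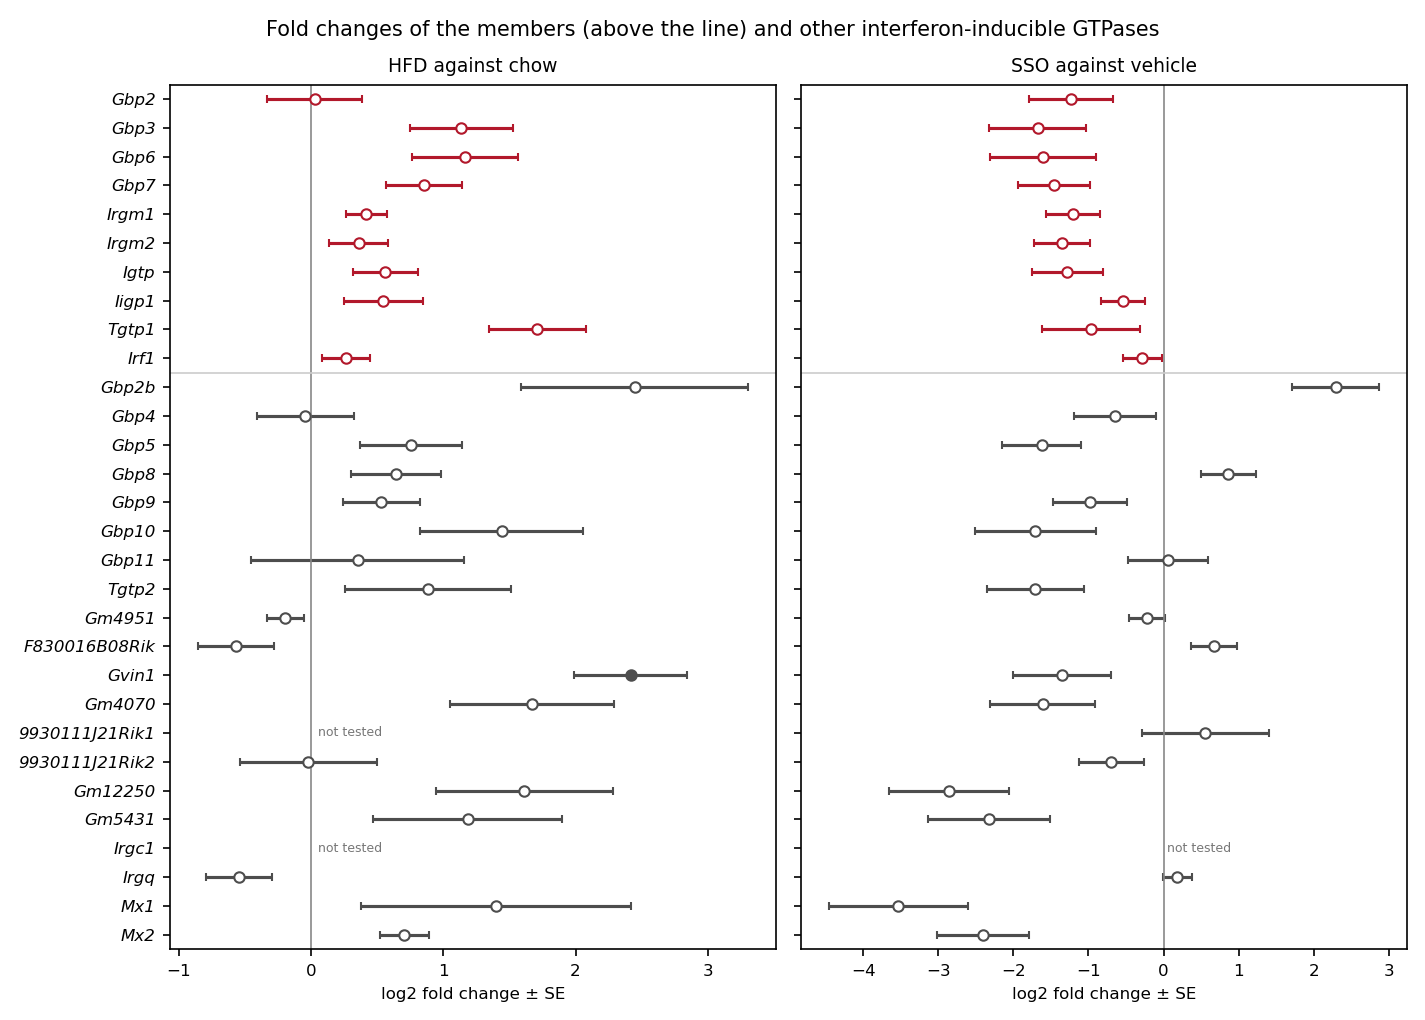
Log2 fold changes with their SE (edgeR) for the 10 members (red) and 20 other interferon-inducible GTPases (grey), HFD against chow on the left and SSO against vehicle on the right; filled points passed an adjusted p of 0.05. The only filled point is Gvin1 in the diet experiment, and Gbp2b and Gbp8 lie to the right of 0 in the SSO panel while all 10 members lie to the left.

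Other GTPases of the same families were read from a list of 20. In HFD, 1 of 18 tested genes passed as higher, beside 2.32% of all genes in either direction. It was Gvin1, a very large interferon-inducible GTPase (chow 0.246 to 0.565 CPM, HFD 1.78 to 2.19 CPM, log2 fold change 2.42 ± 0.43, edgeR adjusted p = 0.0235). Of the 18, 13 had a positive log2 fold change, where 47.3% of all genes did, and the list's median was 0.73. Gvin1 no longer passed without chow 2 or without any single HFD liver. Gm12250, an IRG, ranged over 0.184 to 2.07 CPM in chow liver and 2.84 to 5.23 CPM in HFD liver (1.61 ± 0.67, adjusted p = 0.313). Mx2, a GTPase of the dynamin family, ranged over 6.33 to 7.56 CPM in chow liver and 9.57 to 13.1 CPM in HFD liver (0.70 ± 0.18, adjusted p = 0.0972).

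In SSO, none of 19 tested genes passed (edgeR), and 13 had a negative log2 fold change, with a list median of -0.98. At an unadjusted p under 0.05, 7 were lower, against 12.5% of all genes, and 3 were higher. DESeq2 called 6 of the 19, against 6.35% of all genes. Without vehicle 4, edgeR called 7 lower and 1 higher, where it called 2.24% of all genes. Mx1 (-3.53), Gm12250 (-2.86) and Mx2 (-2.40) had the lowest values, with the same single low vehicle library (Mx1 at 62.7, 24.7, 104 and 1.95 CPM in vehicle). A pair of GBPs was among the 6 genes with a positive log2 fold change. Gbp2b, also known as Gbp1, was at 1.78, 3.27, 1.28 and 0.2399 CPM in vehicle and 8.40, 5.46, 9.13 and 9.01 CPM in SSO (2.29 ± 0.58, adjusted p = 0.110). Gbp8 was at 7.27, 14.2, 15.1 and 3.87 CPM in vehicle and 20.1, 17.2, 16.7 and 19.7 CPM in SSO (0.86 ± 0.36, adjusted p = 0.219). In both genes every SSO library lay above every vehicle library, which was so for 6.14% of all genes. Gbp10, a near relative of Gbp6, was at 23.2, 96.3, 21.3 and 2.78 CPM in vehicle, with the same peak in vehicle 2 as Gbp6.

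The ligand itself was at the limit of detection. Ifng had 0 counts in all 6 diet libraries and in 7 of 8 inhibitor libraries, and 4 counts (0.137 CPM) in vehicle 4, the vehicle library in which the members were lowest. The receptor chain Ifngr1 ranged over 14.5 to 18.4 CPM in chow liver and 21.2 to 22.8 CPM in HFD liver (0.42 ± 0.14, edgeR adjusted p = 0.185). Ifngr2, the other chain, was at 27.8, 10.1, 24.6 and 14.2 CPM in vehicle and 7.88, 7.72, 8.31 and 8.94 CPM in SSO, so that the groups did not overlap (-1.23 ± 0.30, adjusted p = 0.106). Of the 17 signalling genes tested there, only this 1 was lower in every SSO library, near the share of all genes (5.62%). Jak1 and Jak2 had log2 fold changes of 0.07 and 0.34 in HFD and of -0.30 and -0.35 in SSO, none of which passed.

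Socs1, which inhibits the receptor's kinases, was at 0.137 to 6.07 CPM in vehicle and 0.632 to 1.64 CPM in SSO (-1.72 ± 0.80, edgeR adjusted p = 0.257). Of the 16 signalling genes tested in the diet experiment, 1 passed as higher in HFD (edgeR), beside 2.32% of all genes in either direction. It was Irf9, the DNA-binding part of the complex that reads the ISRE (chow 26.8 to 30.98 CPM, HFD 43.7 to 51.1 CPM, log2 fold change 0.75 ± 0.13, edgeR adjusted p = 0.0184). Without chow 2 or without any single HFD liver, none of this list passed. In SSO, none of 17 passed (edgeR), where 0.45% of all genes did. At an unadjusted p under 0.05, 4 were lower, against 12.5% of all genes, and DESeq2 called 3, against 6.35% of all genes.

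Further targets of interferon-gamma had mixed signs in the inhibitor experiment, near the balance of all genes. In HFD, 4 of 28 tested targets passed as higher (edgeR), beside 2.32% of all genes in either direction: the chemokine Cxcl10 (log2 fold change 2.36, adjusted p = 0.0246), the peptide transporter subunit Tap1 (0.90, adjusted p = 0.0287), Parp14 (0.76, adjusted p = 0.0439) and the immunoproteasome subunit Psmb8 (0.93, adjusted p = 0.0487). Limma-voom called 1 of the 28, Tap1 (adjusted p = 0.0321), and gave Parp14, Psmb8 and Cxcl10 adjusted p-values of 0.0507, 0.0512 and 0.0529. Without chow 2, HFD 1 or HFD 3, none of the 28 passed. In SSO, none of 28 passed (edgeR). At an unadjusted p under 0.05, 6 were lower, against 12.5% of all genes, and 3 were higher. DESeq2 called 4, against 6.35% of all genes. There, 17 had a negative and 11 a positive log2 fold change, where 53.0% of all genes had a negative one. The median was -0.16, against -0.04 for all genes. Cxcl10 was at 94.0, 27.3, 127 and 2.02 CPM in vehicle and 2.88 to 6.81 CPM in SSO (-3.71 ± 0.99, adjusted p = 0.113). Cxcl9, a chemokine induced by interferon-gamma rather than type I interferon, was at 23.8, 42.8, 25.8 and 4.90 CPM in vehicle and 13.8 to 30.02 CPM in SSO (-0.11 ± 0.52, adjusted p = 0.922). Some genes of antigen processing had positive log2 fold changes: Psme1, a proteasome activator subunit, was at 119 to 176 CPM in vehicle and 199 to 319 CPM in SSO (0.78 ± 0.21, adjusted p = 0.111), and the class I molecule H2-K1 at 971 to 1581 CPM in vehicle and 1664 to 1900 CPM in SSO (0.60 ± 0.24, adjusted p = 0.193). Neither overlapped between groups. They were the only 2 of the 28 targets that were higher in every SSO library, which was so for 6.14% of all genes.

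Type I interferon targets were compared as the nearest neighbouring programme, since many of them carry an ISRE. In HFD, 2 of 24 passed as higher (edgeR), beside 2.32% of all genes in either direction: the antiviral enzymes Rsad2 (log2 fold change 2.11, adjusted p = 0.0215) and Cmpk2 (2.15, adjusted p = 0.0270). At an unadjusted p under 0.05, 20 of the 24 were higher, against 7.52% of all genes. The median of the 24 was 1.23, against 0.56 for the members. In SSO, none of 24 passed in edgeR, and DESeq2 called 17, against 6.35% of all genes. At an unadjusted p under 0.05 (edgeR), 21 were lower, against 12.5% of all genes. The median was -2.36 against -1.26 for the members. The difference between the members and this list was not tested. Without vehicle 4, 21 of the 24 passed, while 2.24% of all genes did. Without vehicle 2, 4 passed, while 16.2% of all genes did. In the diet experiment, 14 passed without chow 1, beside 4.25% of all genes, and none without chow 2, HFD 1 or HFD 3. There, DESeq2 called 15 of the 24, beside 5.19% of all genes, and edgeR without the filter on low counts called 10, beside 2.56%.

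Genes whose levels followed the members closely were named by the lower of 2 Pearson correlations with the members' mean log2 CPM, over 6 diet libraries and over 8 inhibitor libraries, among 8240 genes. Among the highest were Rnf213 (0.96 and 0.97), Rtp4 (0.96 and 0.98), Dhx58 (0.96 and 0.98) and Eif2ak2 (0.96 and 0.96). All 4 are known interferon-induced genes. The correlations describe these libraries, which share depth, scaling and the group difference, and carry no test.

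Markers of immune cells were read in the same libraries. In the inhibitor experiment, 12 macrophage and monocyte markers summed to 660, 126, 668 and 166 CPM in vehicle 1 to 4 and to 172 to 304 CPM in SSO. EdgeR called none of the 12, of which 9 had a negative log2 fold change (53.0% of all genes), with a median of -0.89. At an unadjusted p under 0.05, 4 were lower in SSO, against 12.5% of all genes. DESeq2 called 3, against 6.35% of all genes. The monocyte marker Ly6c2 was at 48.3, 2.18, 74.7 and 0.716 CPM in vehicle and 1.97 to 3.72 CPM in SSO, and Ccr2, the receptor that brings monocytes into tissue, at 20.4, 2.86, 22.9 and 7.75 CPM and 2.08 to 3.99 CPM. Vehicle 1 and vehicle 3 were therefore high in these markers and in the members, while vehicle 2 was low in the markers and high in the members. The Kupffer cell marker Clec4f was at 98.2, 51.0, 89.1 and 41.9 CPM in vehicle and 68.8 to 146 CPM in SSO. Type I interferon targets summed to 3612, 2237, 3965 and 469 CPM in vehicle 1 to 4 and to 612 to 1004 CPM in SSO. They were thus high in vehicle 1 to 3, though lower in vehicle 2 than in vehicle 1 and vehicle 3.

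Of 18 T and NK cell markers, all had counts in some library, and they summed to 27.7 to 36.8 CPM in vehicle and 24.4 to 39.7 CPM in SSO. Their sum did not separate the groups. The defining T cell markers Cd3d, Cd3e and Cd3g were each under 2 CPM in every library, and Ncr1, an NK cell marker, was under 1 CPM. In the diet experiment the 18 markers summed to 8.76 to 11.7 CPM in chow livers and 18.0 to 24.4 CPM in HFD livers. Most of that came from Zbtb16, a factor of innate-like T cells that other cells also express (chow 5.34 to 7.47 CPM, HFD 12.2 to 15.2 CPM; log2 fold change 1.15, edgeR adjusted p = 0.0190). It was the only 1 of 6 tested markers that edgeR called, where 2.32% of all genes were called. All 6 had a positive log2 fold change, as did 47.3% of all genes, and their median was 0.84 against -0.02 for all genes. Macrophage and monocyte markers summed to 97.9 to 188 CPM in chow livers and 144 to 246 CPM in HFD livers, with chow 1, the chow liver highest in the members, the lowest. EdgeR called none of these 12 markers. Of them, 10 had a positive log2 fold change (47.3% of all genes), and their median was 0.29 against -0.02 for all genes. The part of these cells in the members' levels was not tested.

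The remaining marker lists were read in the same way. B cell markers summed to 5.28 to 22.3 CPM in vehicle and 10.2 to 19.1 CPM in SSO, and dendritic cell markers to 16.0 to 31.8 and 16.2 to 25.6 CPM. EdgeR called none of the 8 dendritic cell markers, of which 5 had a negative and 3 a positive log2 fold change, with a median of -1.15. Of the 8, 3 were lower in SSO with no overlap between groups (5.62% of all genes) and an unadjusted p under 0.05 (12.5% of all genes). DESeq2, which called 6.35% of all genes, called the same 3: Cd209a (edgeR log2 fold change -3.53), Siglech (-2.42) and Xcr1 (-1.95). Endothelial markers summed to 120 to 279 CPM in vehicle and 125 to 221 CPM in SSO, and stellate cell markers to 126 to 275 and 154 to 260 CPM. Neutrophil markers were low, at 0.953 to 21.9 CPM in vehicle and 3.74 to 8.55 CPM in SSO, and were highest in vehicle 1 and vehicle 3, and cholangiocyte markers stood at 41.2 to 163 and 33.1 to 43.2 CPM with the same libraries highest. The summed hepatocyte markers overlapped between groups in both experiments. Of the 7 tested, 1 was higher in HFD without overlap (11.2% of all genes) and 1 was lower. In SSO, 1 was lower without overlap (5.62% of all genes). EdgeR called none of the 7 in either experiment. In the diet experiment DESeq2 called 1, beside 5.19% of all genes, and limma-voom called 1, beside 2.32%.

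In the diet experiment, stellate cell markers summed to 289 to 321 CPM in chow livers and 219 to 253 CPM in HFD livers, and cholangiocyte markers to 56.6 to 88.0 CPM and 103 to 112 CPM. Neither sum overlapped between groups, but sums weigh abundant markers most. Of the 5 cholangiocyte markers, 3 had a negative log2 fold change and 2 a positive one, with a median of -0.31. Their mean log2 levels overlapped (2.38 to 3.23 in chow livers, 2.55 to 2.98 in HFD livers). Of the 6 stellate cell markers, 5 had a negative log2 fold change, with a median of -0.18. Their mean log2 levels overlapped as well (4.64 to 4.78 and 4.40 to 4.73). The sums overlapped for B cell markers (2.80 to 5.26 CPM in chow livers, 5.20 to 5.91 CPM in HFD livers), dendritic cell markers (9.60 to 11.2 CPM and 10.6 to 11.97 CPM), endothelial markers (116 to 180 CPM and 113 to 150 CPM) and neutrophil markers (1.80 to 9.99 CPM and 1.65 to 2.36 CPM). EdgeR called no gene of these 6 lists in the diet experiment. At an unadjusted p under 0.05 it had 2 of 5 cholangiocyte markers and 1 B cell and 1 dendritic cell marker higher in HFD, as were 7.52% of all genes. It had 1 of 6 stellate cell markers and 1 of 3 tested neutrophil markers lower. DESeq2 called 2 cholangiocyte, 1 stellate cell and 1 neutrophil marker, beside 5.19% of all genes. The part of these markers in the results on the members was not tested.

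**Figure D4:**
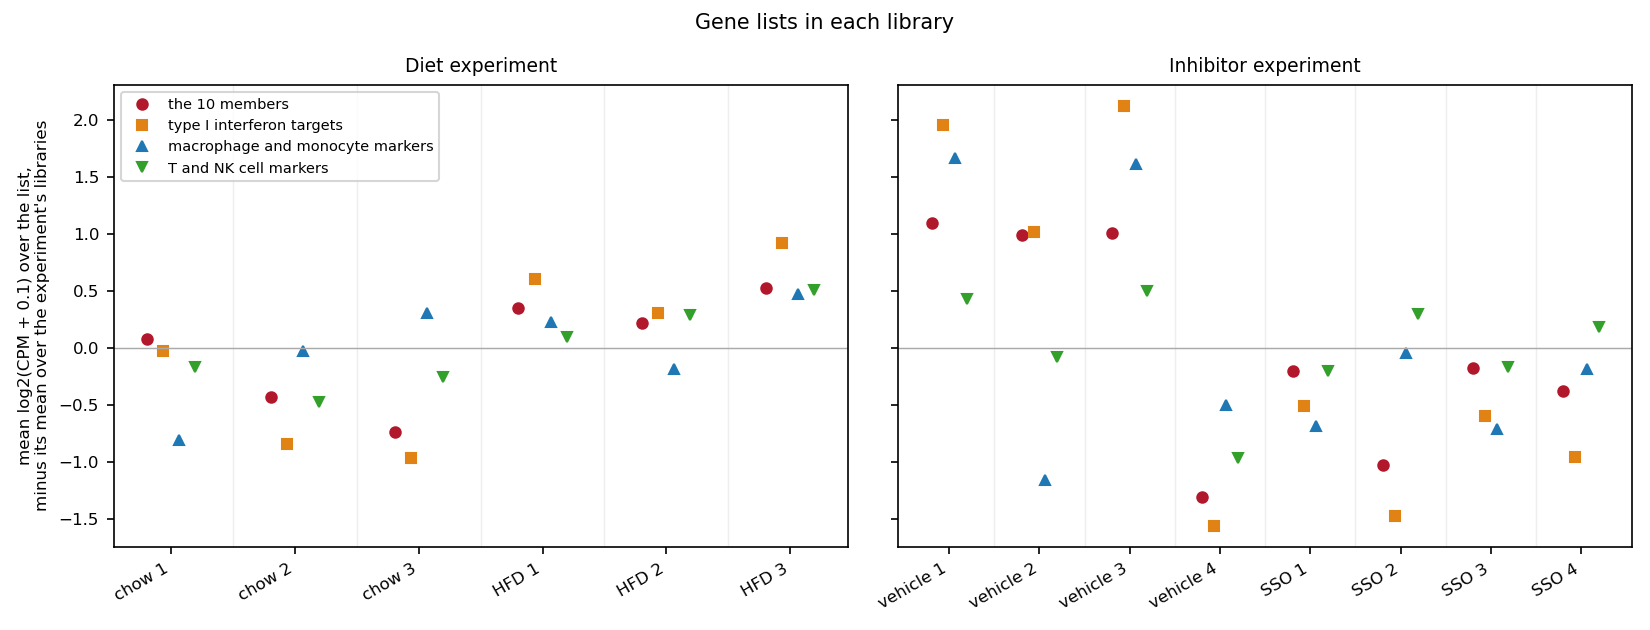
Mean log2(CPM + 0.1) of 4 gene lists in each library, minus the mean of that list over the experiment's libraries, with 1 symbol per list. In vehicle 2, the members and the type I interferon targets lie high while the macrophage and monocyte markers lie low, and vehicle 4 is low for the members.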

How the data were processed

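RNA selected with polyT was sequenced from whole liver, per the labels' protocols. The values are raw read counts per gene as deposited by the authors. Per the submitters' processing notes, the tools were featureCounts 2.0.2, HISAT2 2.2.1, Trim Galore 0.6.1 and DESeq2, with the build GRCm38 (mm10). The settings for strand and multi-mapping reads, and the annotation release, were not given in the sources used here.

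The labels hold 1 record per group, and table columns were assigned to groups by name and treated as replicates. Each table was fitted alone with edgeR 4.0.16 in R 4.3.3 (quasi-likelihood test, robust spread, TMM scaling, filterByExpr), adjusted by Benjamini-Hochberg over all genes and called at an adjusted p under 0.05. Alternatives were other scalings, no filter, DESeq2 1.42.0, limma-voom 3.58.1, summed near-identical copies and each library left out. On simulated counts edgeR recovered most 4-fold changes, while DESeq2 called more unchanged genes than its threshold allows. List means use log2(CPM + 0.1).

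The members and gene lists were chosen with earlier results of these data known. All members were named, then from each list up to 4 genes by smallest p, the most abundant markers, near-identical copies and the 5 genes most like the members; Gbp2b, Gbp8, Cxcl9, H2-K1, Ly6c2 and Clec4f, where outside that rule, were chosen after their values were seen. Floors cover counting error only. A signalling gene that the rule also names is not reported here. The sorted macrophage and single-cell samples were not analysed here.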

Additional observations from a re-analysis of the deposited data

Results flagged for a closer look

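In groups of 4 libraries, each member was checked for a library whose gap to the next exceeded Dixon's critical value on the log2 scale, which chance alone does in about 1 of 20 groups. Of 20 member and group pairs, 6 showed such a library. Vehicle 4 was that library for 4 members: Gbp3 (11.3 CPM), Gbp7 (14.2 CPM), Igtp (45.6 CPM) and Irgm1 (78.1 CPM) were each far below vehicle 1 to 3. SSO 2 was that library for Gbp2 (4.11 CPM) and Gbp7 (15.5 CPM). The members are not independent of each other, since all 10 were lowest in the same vehicle library.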

How the results depend on the processing

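In the diet experiment, the number of members called was 0 as reported, 1 with RLE scaling, 1 with library size alone, 1 without the filter and 1 with DESeq2 (Tgtp1 each time), and ran from 0 to 4 when single libraries were left out (4 without chow 1). In the inhibitor experiment it was 0 as reported, 3 with DESeq2, and ran from 0 to 6 when single libraries were left out (6 without vehicle 4). Signs turned only for Gbp2 in the diet experiment without chow 2 (-0.25) or HFD 3 (-0.19), within a leave-one-out range of -0.25 to 0.35, and for Gbp2 (0.22) and Tgtp1 (0.11) in the inhibitor experiment without vehicle 1 and vehicle 3, an alternative added after seeing the data; the cause was not tested. Counts of all genes called moved more: 361 in the diet experiment against 672 without the filter, 859 with DESeq2 and 86 to 681 with a library left out, and 71 in the inhibitor experiment against 37 with library size alone, 205 without the filter, 1136 with DESeq2 and 0 to 2646 with a library left out. Library size alone moved the median of all genes to 0.13 and -0.20. No paired analysis was possible because the labels give 1 record per group and no number that links livers across groups. The planned macrophage comparison was not run, because the macrophage counts were not analysed here. Low counts limit Tgtp1 and Gbp6 in the diet experiment.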

Other observations

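Lyz2, a gene of macrophages and neutrophils, was at 189, 23.0, 189 and 41.6 CPM in vehicle 1 to 4 and at 0.0371, 11.3, 0.429 and 8.01 CPM in SSO 1 to 4 (edgeR log2 fold change -4.48, adjusted p = 0.129). SSO 1 and SSO 3 thus held almost no Lyz2, although Cd68, another macrophage gene, was at 22.1 and 21.03 CPM in them. Spp1, a marker of bile duct cells that some macrophages also make, was at 30.8 to 148 CPM in vehicle and 21.9 to 33.4 CPM in SSO (edgeR log2 fold change -1.58, adjusted p = 0.135).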
